A study of Mus musculus with 8 samples.

Results

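The comparison described here set mutant Tom-low cells, called E-IAAPs, against mutant Tom-high cells, called E-AT2s, within the Fgfr2b-deleted lungs and paired by day. It used 6 of the 8 arrays of the series, chosen by genotype and by the Tomato level of the sorted population, with 1 array of E-IAAPs and 1 of E-AT2s for each day sampled, namely days 4, 7 and 14 of tamoxifen water. The experimental mice were SftpCreERT2/+; Fgfr2bflox/flox; Tomatoflox/flox, so that Cre driven from the Sftpc locus deleted Fgfr2b and switched on Tomato in the same cells. The remaining 2 arrays, a C-IAAP and a C-AT2 array of day 7, came from SftpCreERT2/+; Tomatoflox/flox control mice with intact Fgfr2b. All mice were 9 to 12 weeks old by the labels, both genders were used, and both genotypes carried the Cre driver and Tomato and received tamoxifen at 1 mg/ml in the drinking water. Each population and day had 1 array, so the 3 days stood in for replicates. A p-value set the mean daily difference against the spread of the daily differences, moderated by the spread over all genes. That spread holds any change over time as well as technical error.

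In adult lung, type 2 alveolar epithelial cells (AT2s) make and recycle surfactant and can give rise to the flat type 1 cells (AT1s) that carry gas exchange. Fgfr2b is the epithelial splice form of the FGF receptor Fgfr2 and receives ligands such as Fgf7 and Fgf10 from the mesenchyme. IAAPs are AT2 lineage-labeled cells with weak Tomato, sorted from Epcam-positive cells, which were described as immature relatives of mature AT2s.

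Signals were on a log2 scale, on which a difference of 1 is a 2-fold change, and each gene was read from its brightest spot over the 8 arrays, giving 24306 genes. A gene was called above background on an array when its signal exceeded the 95th percentile of 1395 sensory receptor genes, which lay at 6.46 to 7.28 on the 6 experimental arrays and at 8.67 on the C-IAAP array. The C-IAAP array also stood apart as a whole, with a correlation of 0.845 to 0.876 to the other arrays across genes, whereas the other arrays correlated at 0.915 to 0.971 with each other. Genes are not independent replicates, so these correlations are descriptions. Values from the control pair are therefore given as side values only.

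Fgfr2 was read first, as the targeted gene. Its signal was 11.84, 11.38 and 10.87 in E-IAAPs on days 4, 7 and 14, against 12.10, 11.95 and 11.68 in E-AT2s, and it was 11.72 in C-IAAPs and 12.45 in C-AT2s. The gene was thus bright in every sample and E-IAAPs lay below E-AT2s on each day, by 0.54 ± 0.27 (n = 3 days, limma, Benjamini-Hochberg adjusted p = 0.501). Here and below ± is the moderated SE of limma, which draws on the spread of all genes and not of 1 gene alone. The deletion removes 1 exon and leaves a mutated transcript, and where the probes lie relative to that exon was not examined here, so this reading does not check the deletion.

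The labelled cell type was present in both populations. Sftpc, the surfactant protein C gene whose promoter drives Cre, read 15.88 to 15.97 in E-IAAPs and 15.94 to 15.99 in E-AT2s, at the ceiling of the scale near 16, where differences are compressed. Epcam, the sorting marker, read 10.88 to 11.21 in E-IAAPs and 11.06 to 11.38 in E-AT2s, and the ranges overlapped. All 25 AT2 markers were above background on all 6 arrays.

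Over all genes, more passed the test as higher in E-IAAPs than as lower, while by sign more were lower than higher. At an adjusted p under 0.05, 317 genes were higher in E-IAAPs, which is 1.30% of all genes tested, and 1 gene was lower, which is 0.00411%. At an unadjusted p under 0.05 the counts were 1598 higher, 6.57% of all genes, and 1241 lower, 5.11%. By sign alone, 3775 genes (15.5%) were higher in E-IAAPs on all 3 days and 5155 (21.2%) were lower on all 3. The arrays of the populations did not overlap for 2056 genes higher in E-IAAPs (8.46%) and for 2599 lower (10.7%). A 2-fold difference or more on each day was found for 763 higher genes (3.14%) and 99 lower genes (0.407%). The median difference over all genes was -0.05. With each array centred on its own median, which moved that median to -0.15, the split by sign was 2921 higher and 6239 lower. Among the 12153 brighter genes, to which most epithelial and metabolic genes described below belong, 1.79% passed as higher, 17.0% were higher and 26.9% lower on all 3 days, and 9.75% and 14.7% did not overlap as higher and as lower.

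The 317 genes that rose had mean daily differences of 2.12 to 7.25, with a median of 3.94, and 244 of them were below background on all E-AT2 arrays. Among genes with 1 sign on 3 days that were above background in the higher population, 369 were higher in E-IAAPs by more than 2 on the log2 scale and 1, Slc13a3, was lower by as much. The median of these same-sign differences was 0.58 for the 1834 higher genes and -0.50 for the 2856 lower genes. The daily differences correlated across genes with r = 0.40 between days 4 and 7, 0.38 between days 4 and 14 and 0.33 between days 7 and 14, and with r = 0.55 to 0.61 over the 12153 brighter genes. These points share 1 array type and normalization and are a description. No gene passed the adjusted test in either direction once any 1 day was left out, when 1 residual degree of freedom remained.

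**Figure D1:**
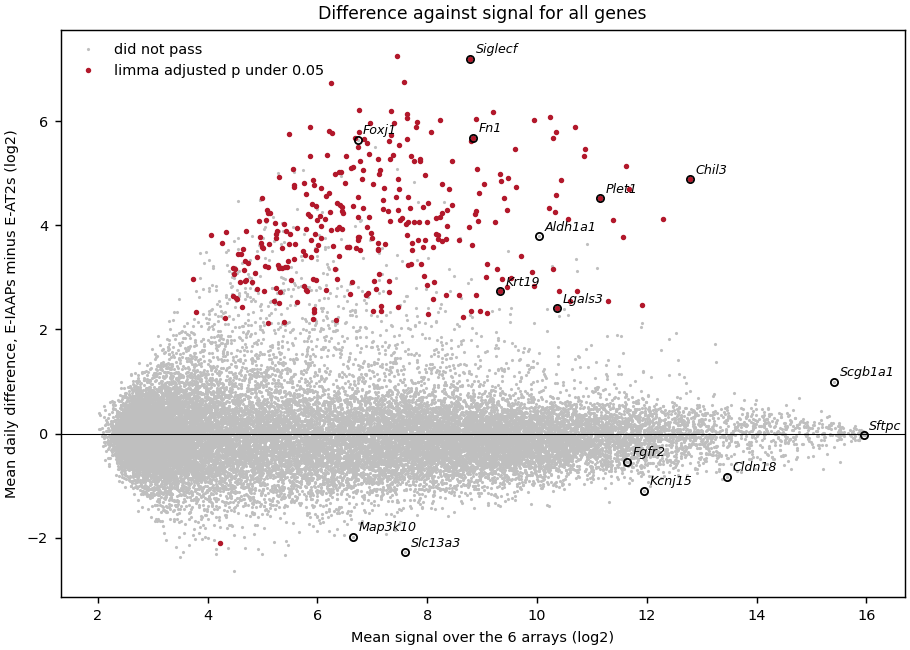
Mean daily log2 difference, E-IAAPs minus E-AT2s (y axis), against the mean log2 signal over the 6 arrays (x axis), 1 point a gene. The 317 genes that passed above the zero line reach 7.25, while the genes below it stay within a narrow band, and the 1 that passed there is dim.

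The strongest rises were in genes of macrophages and other myeloid cells. Siglecf, a sialic acid-binding receptor of alveolar macrophages and eosinophils, read 12.13, 12.11 and 12.91 in E-IAAPs, against 4.47, 5.24 and 5.85 in E-AT2s, where all 3 arrays lay below background. The populations were far apart on every day, and Siglecf was at least 44.5-fold higher in E-IAAPs (mean daily difference 7.20 ± 0.29, limma adjusted p = 0.0175). Here and below, a fold given as a minimum sets the brighter population against the background level of each dim array. Tfec, a transcription factor of the Mitf family expressed in macrophages, read 10.84, 10.95 and 11.42 in E-IAAPs, against 4.08, 1.72 and 5.66 in E-AT2s, and was at least 17.9-fold higher (adjusted p = 0.0253). C5ar1, the receptor for the complement fragment C5a, read 10.95, 10.75 and 11.12 in E-IAAPs, against 3.58, 3.16 and 5.85 in E-AT2s, and was at least 16.4-fold higher (adjusted p = 0.0191). Mrc1, the macrophage mannose receptor, read 9.57, 9.50 and 9.77 in E-IAAPs, against 1.97, 2.97 and 3.72 in E-AT2s, and was at least 6.51-fold higher (adjusted p = 0.0175). None of these 4 genes overlapped between the populations.

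Promoters of Tfec, C5ar1 and Mrc1 are shown because they come from the genes with the largest rises and hold the letters AGGAAGT, the core bound by the myeloid transcription factor PU.1. The motif, searched on both strands in the 300 bases around each start in RefSeq GRCm38.p6 (250 before and 50 after), was found in 9.57% of all 27025 promoters, in 54 of the 244 promoters available for genes that rose (22.1%), and in 7 of the 174 available for the 231 genes lower by over 1 on all 3 days (4.02%). By list it was found in 2 of 15 alveolar macrophage promoters (13.3%) and in 3 of 13 ciliated gene promoters (23.1%). A match is a description of the letters and not a binding site. The promoters lie at chr6:16898392-16898691 on the minus strand for Tfec, chr7:16259289-16259588 on the minus strand for C5ar1 and chr2:14229164-14229463 on the plus strand for Mrc1. Capitals mark the motif, as AGGAAGT or as its reverse complement ACTTCCT.
Tfec: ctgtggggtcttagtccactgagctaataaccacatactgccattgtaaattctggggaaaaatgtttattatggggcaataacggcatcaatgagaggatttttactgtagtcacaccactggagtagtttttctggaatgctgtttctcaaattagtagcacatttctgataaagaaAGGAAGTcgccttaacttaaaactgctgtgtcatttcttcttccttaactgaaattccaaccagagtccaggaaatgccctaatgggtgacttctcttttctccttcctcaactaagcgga
C5ar1: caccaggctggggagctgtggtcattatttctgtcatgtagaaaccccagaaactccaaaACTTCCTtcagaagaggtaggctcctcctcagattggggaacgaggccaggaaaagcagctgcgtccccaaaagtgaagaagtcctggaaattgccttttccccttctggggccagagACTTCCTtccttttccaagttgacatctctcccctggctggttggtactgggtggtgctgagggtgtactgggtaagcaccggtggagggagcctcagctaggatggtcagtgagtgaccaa
Mrc1: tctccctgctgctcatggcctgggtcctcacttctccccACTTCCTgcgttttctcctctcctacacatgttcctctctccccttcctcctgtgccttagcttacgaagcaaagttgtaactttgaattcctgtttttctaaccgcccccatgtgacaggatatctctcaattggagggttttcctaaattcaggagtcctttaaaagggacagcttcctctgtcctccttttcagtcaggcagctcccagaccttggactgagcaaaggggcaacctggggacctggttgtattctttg

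The remaining genes among the 15 largest rises were of several kinds, and Egr2 and Osm, which belong to them, are given with the signaling genes. Slco2b1, an organic anion transporter, read 10.36 to 10.54 in E-IAAPs and 3.17 to 5.26 in E-AT2s. Clec7a, the beta-glucan receptor dectin-1, read 12.14 to 12.41 in E-IAAPs and 4.80 to 7.33 in E-AT2s, with 1 E-AT2 array above background. Cidec, a protein of lipid droplets, read 10.48 to 11.02 in E-IAAPs and 3.42 to 6.31 in E-AT2s. Gcnt1 (an enzyme that branches O-glycans), Tlr8 (an endosomal RNA sensor), Ear2 (an eosinophil-associated ribonuclease), Lilrb4a (an inhibitory receptor), Cybb (the catalytic subunit of the phagocyte NADPH oxidase) and Slc6a4 (the serotonin transporter) rose by 5.98 to 6.21, with adjusted p of 0.0175 to 0.0495. For Tlr8, 1 of 4 spots went the other way, and the other of 2 Gcnt1 spots was higher by only 0.40.

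By list, the rises were most frequent among markers of alveolar macrophages and of leukocytes at large. Of 21 alveolar macrophage markers measured, 17 passed as higher and all 21 were higher on all 3 days without overlap, with a median difference of 4.89, or 3.62 with dim genes held at background. Their summed signal was 16.64 to 16.94 in E-IAAPs and 12.37 to 13.06 in E-AT2s on the log2 scale, and 20 of 21 were above background on all E-IAAP arrays and 8 of 21 on all E-AT2 arrays. Of 21 general leukocyte markers, 14 passed and 19 were higher on all 3 days, with a median of 4.11, or 2.95 with dim genes at background. Their summed signal was 16.47 to 16.62 in E-IAAPs and 13.78 to 14.37 in E-AT2s. Whether these markers come from other cells in the sort or from the labelled cells was not tested. In bulk samples such as these, fewer cells of a type and less RNA per cell cannot be told apart.

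Among the bright members, Chil3, a chitinase-like protein of alveolar macrophages, read 15.03 to 15.37 in E-IAAPs and 9.75 to 11.34 in E-AT2s, a 29.6-fold difference, and was well above background in both. Plet1, a surface protein of alveolar macrophages and of some epithelia, was 22.9-fold higher at 13.26 to 13.64 in E-IAAPs against 8.32 to 9.79 in E-AT2s. Krt79, a keratin also known from alveolar macrophages, read 12.17 to 12.58 in E-IAAPs and 10.25 to 10.79 in E-AT2s without overlap but did not pass (adjusted p = 0.0952). The other of its 2 spots was higher by 5.97, so the size of its difference depends on the spot. Itgb2, the beta chain of leukocyte integrins, was 35.1-fold higher. Lcp1, an actin-bundling protein of leukocytes, was bright in both populations (13.90 to 14.08 in E-IAAPs, 13.12 to 14.07 in E-AT2s) and the ranges overlapped.

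Other blood lineages contributed few genes. Of 14 monocyte and interstitial macrophage markers 3 passed, namely Adgre1 (a macrophage surface receptor, at least 11.1-fold higher), Mertk (a receptor for dying cells, at least 1.48-fold, on 2 E-IAAP arrays above background) and Fcgr1 (a high-affinity IgG receptor, at least 1.05-fold, on 1). On its brightest spot Csf1r, the receptor for macrophage growth factor, read 13.29 to 13.54 in E-IAAPs and 13.18 to 13.57 in E-AT2s, with overlapping ranges. The other of its 2 spots was higher in E-IAAPs by 2.59, so the reading of Csf1r depends on the spot. Of 9 dendritic cell markers 3 passed: Cd209a (a lectin, at least 2.23-fold higher), Ccr7 (a chemokine receptor, above background on 2 E-IAAP arrays) and Clec9a (a receptor for damaged cells, on 1). Clec9a lost the call when the day was left out of the fit (adjusted p = 0.132). Of 13 T and NK cell markers only the adhesion molecule Cd2 passed (at least 3.2-fold higher), and Cd4, the helper T cell coreceptor, read 9.19 to 9.88 in E-IAAPs and 8.87 to 9.54 in E-AT2s. None of 7 B cell, 11 neutrophil, 11 mast cell, basophil and eosinophil or 4 erythroid markers passed. Against the background of 1.30%, the share that passed was high for macrophage, general leukocyte and dendritic lists, as a description.

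Antigen presentation genes were above background on every experimental array. Of 8 measured 1 passed, against 1.30% of all genes. This was the lysosomal protease Ctss, at 13.75, 14.00 and 14.32 in E-IAAPs, against 8.65, 9.02 and 10.31 in E-AT2s (25.9-fold, limma adjusted p = 0.0175). H2-Ab1, a class II chain, read 13.86 to 14.79 in E-IAAPs and 13.76 to 14.12 in E-AT2s, and H2-Aa, its partner chain, read 12.60 to 12.99 in E-IAAPs and 12.52 to 12.93 in E-AT2s. The median difference of the list was 0.17. Ciita, the activator of class II genes, was lower on all 3 days, at 7.36 to 8.92 in E-IAAPs and 8.49 to 9.53 in E-AT2s (difference -0.71, adjusted p = 0.443). Lgals9, the galectin-9 gene, was also lower on all 3 days, at 8.39 to 8.73 in E-IAAPs and 9.23 to 9.54 in E-AT2s, without overlap (difference -0.81, adjusted p = 0.35).

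Of 18 immune checkpoint and inhibitory receptor genes, 8 passed, against 1.30% of all genes. The median was 2.47, or 1.31 with dim genes at background. Cd274, the checkpoint ligand Pd-l1, read 10.28, 9.51 and 10.53 in E-IAAPs, against 5.31, 3.42 and 4.75 in E-AT2s, where it lay below background on each array, and was at least 9.17-fold higher (limma adjusted p = 0.0175). The control pair had 10.53 in C-IAAPs and 5.02 in C-AT2s. Cd300lf, an inhibitory receptor of myeloid cells, read 9.48 to 9.96 in E-IAAPs and 3.84 to 5.30 in E-AT2s and was at least 7.11-fold higher. Cd33, a sialic acid-binding inhibitory receptor, read 8.48 to 9.08 in E-IAAPs and 2.22 to 4.28 in E-AT2s and was at least 3.85-fold higher. The other of 2 Cd33 spots was higher by only 0.63. Sirpa, the receptor for the don't-eat-me signal Cd47, was 19.0-fold higher. Cd80, a ligand of T cell costimulation, read 10.64 to 11.22 in E-IAAPs and 10.52 to 11.28 in E-AT2s on its brightest spot, and the ranges overlapped. Of its 4 spots 3 were higher in E-IAAPs, by up to 2.53.

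Genes lower in E-IAAPs were many, mostly small in difference and rarely past the test. The 1 that fell, the predicted gene Gm30782, named after its values were seen, read 3.68, 2.95 and 2.91 in E-IAAPs, against 5.87, 4.81 and 5.14 in E-AT2s (limma adjusted p = 0.0464), below background on all 6 arrays, so no fold is given. Of the lower genes above background in E-AT2s, 231 were lower by a mean log2 of over 1, with 1 sign on all 3 days. The arrays of 190 of these did not overlap, against 14.7% of the brighter genes. They were picked by size and sign on the same arrays, which favors separation, so the 190 are a description. The smallest limma adjusted p among all lower genes above background was 0.0793.

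Slc13a3, a sodium-coupled carrier of dicarboxylates, had the largest lower value. It read 7.50, 6.76 and 5.11 in E-IAAPs, against 8.45, 8.97 and 8.80 in E-AT2s (difference -2.28 ± 0.57, limma adjusted p = 0.267). The populations did not overlap and the gap was widest on day 14, with 1 E-IAAP array above background. Map3k10, a mixed-lineage kinase upstream of JNK, read 6.53, 5.19 and 5.28 in E-IAAPs, against 8.03, 7.44 and 7.46 in E-AT2s (difference -1.98, adjusted p = 0.0793), but 2 of its 3 spots were higher in E-IAAPs, so its direction depends on the spot. Crym, a thyroid hormone-binding crystallin, read 7.22, 6.40 and 5.84 in E-IAAPs, against 8.50, 8.65 and 7.87 in E-AT2s (difference -1.85, adjusted p = 0.113).

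The other genes among the 15 largest lower values also had an adjusted p over 0.05, and the populations did not overlap except for Rhbdf1 and Ccn2, of which Ccn2 is given with the signaling genes. Snx21, a sorting nexin, read 5.84 to 7.03 in E-IAAPs and 7.88 to 9.05 in E-AT2s, Inava, a regulator of epithelial junctions and innate signaling, read 5.05 to 5.95 in E-IAAPs and 7.10 to 7.49 in E-AT2s, and Rgn, the calcium-binding protein regucalcin, read 6.28 to 7.14 in E-IAAPs and 7.84 to 8.95 in E-AT2s. Mrc2, a collagen-uptake receptor, read 4.42 to 6.95 in E-IAAPs and 7.26 to 7.38 in E-AT2s. Vwa1, a matrix protein, Elp4, an Elongator subunit, and Rhbdf1, a rhomboid-related protein that helps carry the ADAM17 protease, had differences of -1.59, -1.64 and -1.57. Arxes2, Tceal6, Gm33277 and Gm2115 had differences of -1.56 to -1.92. Among the lower genes named here and below, 1 spot went the other way for Vwa1, Lamb3, Sparc, Kcnq1 and Ciita.

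Of the lower genes above background in E-AT2s, 4 were chosen after their values were seen. Fitm2, which helps bud lipid droplets from the endoplasmic reticulum, read 8.53, 8.18 and 8.55 in E-IAAPs, against 9.73, 9.79 and 9.86 in E-AT2s (2.59-fold lower, limma adjusted p = 0.151). Tspan8, a tetraspanin of epithelial surfaces, read 8.97, 9.15 and 8.75 in E-IAAPs, against 10.20, 10.40 and 10.08 in E-AT2s (2.41-fold lower, adjusted p = 0.162). Both genes were above background on all 6 arrays and separated the populations on every day. Rab38, a small GTPase of lysosome-related organelles that include the lamellar bodies of AT2s, read 6.95 to 7.31 in E-IAAPs and 8.40 to 8.64 in E-AT2s. Nipsnap1, a mitochondrial protein, read 6.50 to 7.00 in E-IAAPs and 8.22 to 8.28 in E-AT2s.

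Epithelial genes differed in both directions, and their largest list medians were those of the airway genes given below. Of 165 epithelial genes measured, 5 passed as higher and 0 as lower, against 1.30% and 0.00411% of all genes, and the median was -0.16. On all 3 days 41 were higher and 68 lower, against 17.0% and 26.9% of the brighter genes, where lower signs also outnumbered higher ones. Both counts, and the 5 rises, lay above the shares given. None of the 25 AT2 genes passed, 17 were lower on all 3 days and 0 higher, and the arrays of 14 did not overlap, against 14.7% of the brighter genes. The AT2 median was -0.55, made of -0.22 on day 4, -0.30 on day 7 and -0.997 on day 14, and was -0.29 without day 14. Sftpb, surfactant protein B, read 14.75, 14.39 and 13.44 in E-IAAPs, against 14.94, 14.44 and 14.996 in E-AT2s, with the gap on day 14. Sftpa1, a surfactant collectin, read 13.88 to 14.24 in E-IAAPs and 14.05 to 14.24 in E-AT2s, with a difference of -0.12. Abca3, the lamellar body lipid pump, chosen after its values were seen, read 10.94, 10.94 and 10.06 in E-IAAPs, against 11.41, 11.17 and 11.04 in E-AT2s (1.47-fold lower, adjusted p = 0.515). Cxcl15 (lungkine) and Slc34a2 (the phosphate carrier of AT2s) were near the ceiling in both, with differences of -0.40 and -0.08. The summed general leukocyte signal of E-IAAPs on the same days was 16.48, 16.47 and 16.62. Their summed signal was 16.64, 16.89 and 17.66 for the club and secretory airway list and 14.51, 14.50 and 16.11 for the ciliated airway list. The part of leukocyte or airway RNA in the AT2 values was not tested.

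**Figure D2:**
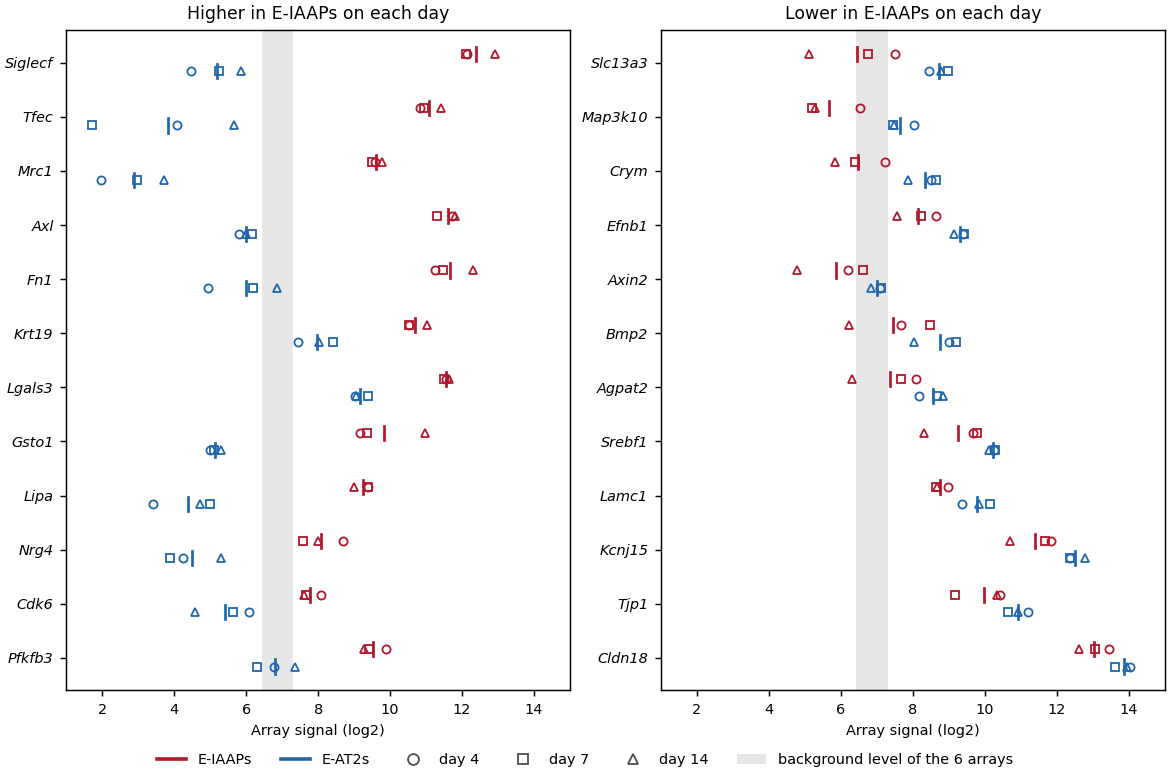
Log2 signal (x axis) of 12 genes higher and 12 genes lower in E-IAAPs (red, upper row of each gene) than in E-AT2s (blue, lower row), with 1 symbol for each day, a bar at the mean of 3 arrays and a gray band for the background level of the 6 arrays (6.46 to 7.28). The higher genes are separated by wide gaps that often cross the band, and the lower genes by narrow gaps.

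AT1 and transitional genes gave a mixed picture. Of 20 AT1 genes, 0 passed, and the median was -0.34. On all 3 days 10 were lower and 2 higher, against 26.9% and 17.0% of the brighter genes. Cldn18, the tight junction claudin of alveolar epithelium, read 13.45, 13.06 and 12.62 in E-IAAPs, against 14.03, 13.63 and 13.95 in E-AT2s, a 1.78-fold lower level without overlap (adjusted p = 0.404). Ager, the AT1 receptor RAGE, read 14.17 to 14.35 in E-IAAPs and 14.53 to 14.77 in E-AT2s. Against these, Cav1, the caveolae protein of AT1s and endothelium, chosen after its values were seen, read 7.63 to 8.51 in E-IAAPs and 6.61 to 6.90 in E-AT2s (2.75-fold higher, adjusted p = 0.165). Only 1 E-AT2 array of Cav1 was above background, so its fold is uncertain.

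The list of the AT2-to-AT1 transitional state held 4 of the 5 epithelial genes that rose: Fn1, Plaur, Krt19 and Lgals3. Krt19, a keratin of simple epithelia, read 10.53, 10.52 and 11.03 in E-IAAPs, against 7.45, 8.42 and 8.01 in E-AT2s, and was 6.64-fold higher (limma adjusted p = 0.0411). Lgals3, the galectin-3 gene, read 11.55, 11.51 and 11.63 in E-IAAPs, against 9.04, 9.38 and 9.05 in E-AT2s, and was 5.29-fold higher (adjusted p = 0.0333). Both were above background in both populations on every day. Fn1 (fibronectin) read 11.25, 11.47 and 12.30 in E-IAAPs, against 4.94, 6.18 and 6.85 in E-AT2s, with 1 E-AT2 array above background, and Plaur (the urokinase receptor) was at least 4.93-fold higher. Fn1, Plaur and Lgals3 are also known from macrophages, whose markers moved alongside. The part of macrophage RNA in these rises was not tested. Of the 15 genes of the list, 4 passed, against 1.30% of all genes. On all 3 days 5 were higher and 2 lower, against 17.0% and 26.9% of the brighter genes, and 8 had mixed signs. The median of the list was 0.06. Krt18, Sfn and Nupr1, its 3 brightest members, differed by -0.11, -0.04 and 0.06.

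Junction and polarity genes had a lower median in E-IAAPs on every day. Of 30 measured, 0 passed, and 18 were lower and 0 higher on all 3 days, against 26.9% and 17.0% of the brighter genes. The arrays of 14 did not overlap, against 14.7% of the brighter genes. The daily medians were -0.39, -0.50 and -0.29. Tjp1, the tight junction scaffold ZO-1, read 10.43, 9.17 and 10.35 in E-IAAPs, against 11.20, 10.64 and 10.94 in E-AT2s (1.93-fold lower, limma adjusted p = 0.365). Marveld3, a tight junction membrane protein, read 8.29 to 8.73 in E-IAAPs and 9.27 to 9.96 in E-AT2s (2.11-fold lower, 1 of 3 spots the other way). Rab25, a GTPase of apical recycling, read 8.90 to 9.47 in E-IAAPs and 9.68 to 10.25 in E-AT2s, and Spint2, an inhibitor of epithelial proteases, read 12.42 to 12.56 in E-IAAPs and 12.91 to 13.20 in E-AT2s. F11r and Lsr, further junction proteins, differed by 0.01 and 0.06. Among 21 lung epithelial transcription factors 13 were lower and 4 higher on all 3 days, against the same 26.9% and 17.0%. Nkx2-1, the lung identity factor, read 13.44 to 13.91 in E-IAAPs and 14.05 to 14.14 in E-AT2s. Gata6, another of these factors, read 5.61 to 6.51 in E-IAAPs and 6.82 to 7.07 in E-AT2s. Of 19 ion and water transport genes 11 were lower on all 3 days, against the same 26.9%. Kcnj15, a potassium channel, read 11.85, 11.68 and 10.70 in E-IAAPs, against 12.36, 12.36 and 12.79 in E-AT2s (2.14-fold lower). Kcnq1, another potassium channel, read 7.31 to 8.19 in E-IAAPs and 8.20 to 8.98 in E-AT2s.

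Airway genes held many of the large higher values among epithelial genes, and the largest were on day 14. Of 16 ciliated airway genes 12 were higher on all 3 days and 11 did not overlap, against 15.5% and 8.46% of all genes. Their daily medians were 0.99, 0.83 and 4.21 and the median was 2.10, or 0.94 without day 14. Of 16 club and secretory genes 11 were higher on all 3 days and 9 did not overlap, against the same shares. Their daily medians were 0.69, 1.35 and 3.45 and the median was 1.71, or 1.04 without day 14. Below background on all E-AT2 arrays were 8 ciliated and 7 club genes, so part of each gap lay under that level. With dim genes at background the ciliated median was 0.82 and the club median 0.94. One ciliated gene passed. Dnah5, an axonemal dynein, read 8.62, 8.05 and 12.37 in E-IAAPs, against 3.35, 3.85 and 4.87 in E-AT2s, and was at least 6.82-fold higher (limma adjusted p = 0.0423). It lost the call without the day in the fit (adjusted p = 0.0668).

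Foxj1, the master factor of motile cilia, read 7.35, 8.68 and 12.62 in E-IAAPs, against 3.26, 4.19 and 4.27 in E-AT2s, at least 6.24-fold higher but with an adjusted p of 0.0993. The difference grew with the day. Scgb3a2 and Scgb3a1, secretoglobins of airway secretory cells, read 11.23, 11.90 and 14.94 and 11.03, 12.91 and 14.26 in E-IAAPs, against 9.50, 9.51 and 9.50 and 9.61, 8.41 and 9.27 in E-AT2s. Scgb1a1, the club cell secretoglobin, read 15.78 to 15.999 in E-IAAPs and 14.44 to 15.25 in E-AT2s, again near the ceiling. The summed club signal was 16.64, 16.89 and 17.66 in E-IAAPs, against 16.10, 16.31 and 16.42 in E-AT2s, and the summed ciliated signal was 14.51, 14.50 and 16.11 in E-IAAPs, against 14.62, 14.47 and 14.32 in E-AT2s. With only 1 array on day 14, day and array cannot be told apart.

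**Figure D3:**
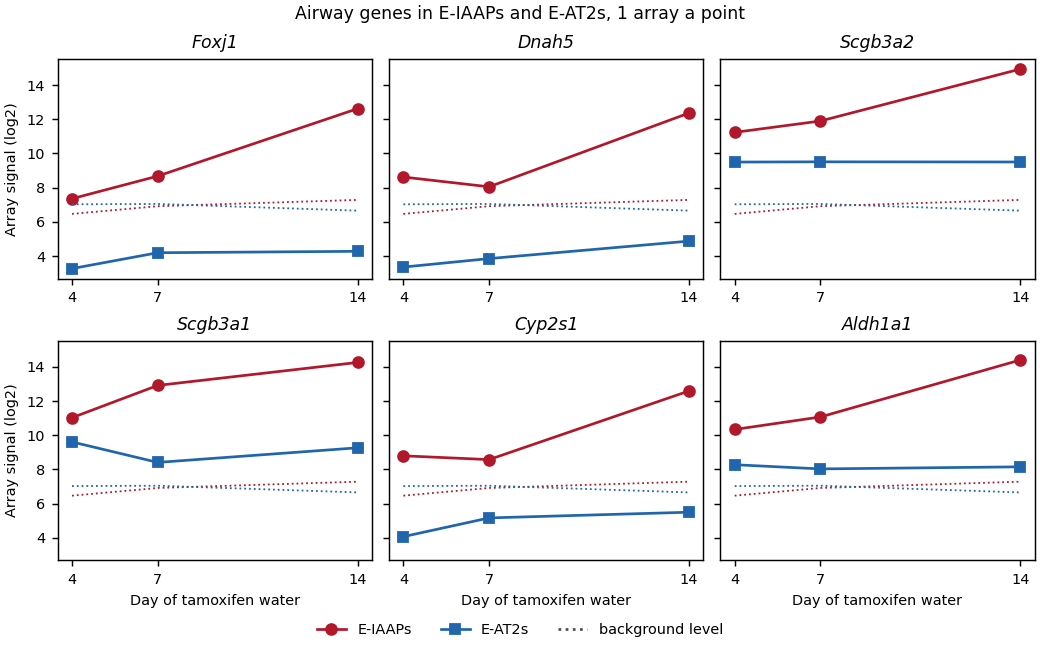
Log2 signal (y axis) of Foxj1, Dnah5, Scgb3a2, Scgb3a1, Cyp2s1 and Aldh1a1 on days 4, 7 and 14 of tamoxifen water (x axis) in E-IAAPs (red) and E-AT2s (blue), 1 array a point, with dotted background levels. The E-IAAP points lie above the E-AT2 points on each day and are highest on day 14.

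The promoters of Tekt1 and Ccdc113, both genes of the ciliary axoneme chosen after their values were seen, are shown because ciliary genes are known targets of RFX factors. The short RFX motif GTTGCC, searched on both strands in RefSeq GRCm38.p6, was present in 12.7% of all promoters, in 6 of the 13 ciliated genes with a promoter (46.2%) and in 11.5% of the promoters of genes that rose. Tekt1, a tektin of ciliary microtubules, read 5.60, 4.98 and 10.49 in E-IAAPs, against 2.47, 3.58 and 3.14 in E-AT2s, and Ccdc113, a coiled-coil axoneme protein, read 5.74, 5.52 and 9.49 in E-IAAPs, against 3.45, 3.80 and 3.01 in E-AT2s, so that only the E-IAAP array of day 14 lay above background. The promoters lie at chr11:72361833-72362132 on the minus strand for Tekt1 and chr8:95533850-95534149 on the plus strand for Ccdc113. Capitals mark GTTGCC or its reverse complement GGCAAC.
Tekt1: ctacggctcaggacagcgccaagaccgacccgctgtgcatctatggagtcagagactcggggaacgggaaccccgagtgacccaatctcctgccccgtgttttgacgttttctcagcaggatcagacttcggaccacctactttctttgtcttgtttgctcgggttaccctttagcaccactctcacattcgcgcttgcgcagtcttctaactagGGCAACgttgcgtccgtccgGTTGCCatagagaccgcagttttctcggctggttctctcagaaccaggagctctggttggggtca
Ccdc113: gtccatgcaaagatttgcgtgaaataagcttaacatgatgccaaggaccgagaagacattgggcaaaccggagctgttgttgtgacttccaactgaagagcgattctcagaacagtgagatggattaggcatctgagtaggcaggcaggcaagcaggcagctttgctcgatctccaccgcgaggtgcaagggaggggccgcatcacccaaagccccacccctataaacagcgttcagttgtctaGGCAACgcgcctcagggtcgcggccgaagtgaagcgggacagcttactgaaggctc

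Stromal genes were sparse in both populations. Of 106 measured, 6 passed as higher and 0 as lower, against 1.30% and 0.00411% of all genes, and the median was 0.09. On all 3 days 22 were higher and 21 lower, near the 15.5% and 21.2% of all genes. Of 22 fibroblast genes 20 were below background on all 6 arrays. Of 20 endothelial genes 1 passed, Car4, a membrane carbonic anhydrase of lung capillaries that alveolar macrophages also carry, at 10.07, 10.03 and 10.82 in E-IAAPs, against 6.15, 5.68 and 6.64 in E-AT2s (at least 10.6-fold higher, limma adjusted p = 0.0175). Calcrl, an endothelial peptide receptor, read 6.90 to 8.84 in E-IAAPs and 4.75 to 6.18 in E-AT2s (adjusted p = 0.12).

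Matrix genes went both ways, while 1.30% of all genes passed as higher. In matrix remodelling 4 of 21 genes rose: Tgm2, a protein crosslinker, at 11.80, 11.90 and 11.91 in E-IAAPs, against 8.93, 9.51 and 9.56 in E-AT2s (5.80-fold, limma adjusted p = 0.0304), Mmp19, a metalloproteinase, at 10.65 to 11.44 in E-IAAPs and 6.37 to 7.18 in E-AT2s, Mmp12, the macrophage elastase, at least 1.62-fold higher, and Adam8, a protease of myeloid cells, above background on 2 E-IAAP arrays. With all spots of a gene averaged, Mmp12 and Adam8 did not pass (adjusted p = 0.0965 and 0.0801). Of 25 basement membrane and matrix genes 13 were lower and 2 higher on all 3 days, against 26.9% and 17.0% of the brighter genes. The median was -0.46. The 1 gene of this list that passed, Fn1, was higher, with a difference of 5.68 (adjusted p = 0.0175). Lamc1, a laminin chain, read 8.98, 8.63 and 8.68 in E-IAAPs, against 9.36, 10.15 and 9.85 in E-AT2s (2.03-fold lower, adjusted p = 0.367). All 4 spots of Lamc1 were lower. Npnt, a matrix ligand of integrins in alveoli, read 7.56 to 8.09 in E-IAAPs and 8.43 to 9.12 in E-AT2s. Tinagl1, a matrix glycoprotein, was 2.04-fold lower. Hspg2 (perlecan), Lamb3 (a laminin chain) and Mmp15 (a membrane metalloproteinase) had differences of -0.98, -0.85 and -1.08, Col4a1, a collagen IV chain, of -0.45, and Sparc, a collagen-binding protein, of -0.63. None of these lower genes passed.

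Metabolic genes gave 3 rises and a broad lower sign in lipid synthesis. Of 211 measured, 3 passed as higher and 0 as lower, against 1.30% and 0.00411% of all genes, so the rises were near that share. On all 3 days 38 were higher and 74 lower, against 17.0% and 26.9% of the brighter genes. The higher count was near its share, and the median was -0.17. Gsto1, a glutathione transferase, read 9.15, 9.35 and 10.98 in E-IAAPs, against 4.98, 5.11 and 5.31 in E-AT2s (at least 7.57-fold higher, limma adjusted p = 0.0204). Lipa, the lysosomal acid lipase, read 9.38, 9.40 and 8.99 in E-IAAPs, against 3.41, 4.98 and 4.72 in E-AT2s (at least 5.09-fold higher, adjusted p = 0.0207). Cd68, a lysosomal membrane protein abundant in macrophages, was 8.61-fold higher. Lamp1 and Lamp2, the general lysosomal membrane proteins, differed by -0.21 and -0.17.

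Of 22 fatty acid synthesis genes 14 were lower and 3 higher on all 3 days, against 26.9% and 17.0% of the brighter genes. The arrays of 12 lower ones did not overlap, against 14.7% of the brighter genes, and 0 passed. The daily medians were -0.22, -0.34 and -1.20 and the median was -0.56, or -0.30 without day 14. Srebf1, the transcription factor that drives lipogenic genes, read 9.66, 9.79 and 8.30 in E-IAAPs, against 10.26, 10.30 and 10.13 in E-AT2s (1.97-fold lower, limma adjusted p = 0.427). Agpat2, an acyltransferase of phospholipid and triglyceride synthesis, read 8.10, 7.69 and 6.31 in E-IAAPs, against 8.18, 8.66 and 8.84 in E-AT2s (difference -1.19, adjusted p = 0.47). For both the gap was widest on day 14, the day of the highest summed airway signals in E-IAAPs. Gpam and Acsl4, enzymes of glycerolipid and acyl-CoA synthesis, differed by -0.67 and -0.46, and Scd1, the desaturase, read 15.02, 15.19 and 13.91 in E-IAAPs, against 15.37, 15.02 and 15.07 in E-AT2s. Dgat2, a triglyceride synthase chosen after its values were seen, stood the other way at 5.90, 6.87 and 7.75 in E-IAAPs, against 2.52, 5.002 and 4.70 in E-AT2s (adjusted p = 0.0677), with 1 array above background.

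Of 17 phosphatidylcholine and surfactant lipid genes 10 were lower and 0 higher on all 3 days, against 26.9% and 17.0% of the brighter genes. The median was -0.56, or -0.35 without day 14. Lpcat1, which remodels surfactant phosphatidylcholine, read 13.10, 12.71 and 11.80 in E-IAAPs, against 13.44, 13.30 and 13.16 in E-AT2s (1.70-fold lower, limma adjusted p = 0.449). The populations did not overlap for Lpcat1. Sterol synthesis had 7 of 17 genes lower on all 3 days, against the same 26.9%. Its daily medians were -0.29, 0.00 and -1.22 (median -0.48, or -0.14 without day 14). Nsdhl, a sterol dehydrogenase, read 8.04, 7.31 and 5.64 in E-IAAPs, against 8.51, 8.02 and 8.60 in E-AT2s (1 of its 2 spots was higher). Hmgcs1, an early enzyme of the pathway, was 1.51-fold lower. Energy metabolism differed little: the medians were -0.16 for fatty acid oxidation, 0.05 for glycolysis, -0.15 for the citric acid cycle and -0.13 for the respiratory chain, and none of these genes passed.

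Single metabolic genes went beyond their lists. Pfkfb3, the enzyme whose product speeds glycolysis, chosen after its values were seen, read 9.89, 9.41 and 9.28 in E-IAAPs, against 6.76, 6.29 and 7.35 in E-AT2s (6.61-fold higher, limma adjusted p = 0.0548), and Pfkp, a phosphofructokinase likewise chosen after its values were seen, was 4.17-fold higher (adjusted p = 0.101), each with 1 E-AT2 array above background. Cyp2s1, a cytochrome P450 of airway epithelium, read 8.80, 8.57 and 12.59 in E-IAAPs, against 4.07, 5.16 and 5.50 in E-AT2s (at least 8.45-fold higher, adjusted p = 0.0763). The other of its 2 spots was higher by only 0.25. Aldh1a1, a retinal dehydrogenase, read 10.34, 11.07 and 14.40 in E-IAAPs, against 8.28, 8.03 and 8.15 in E-AT2s, and Cyp4b1, a P450 of club cells, read 8.32, 7.90 and 11.87 in E-IAAPs, against 6.40, 5.97 and 7.36 in E-AT2s. All 3 were highest on E-IAAP day 14, as the airway genes were. Hadh and Dlst, enzymes of fatty acid oxidation and the citric acid cycle, differed by -1.06 each.

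Signaling genes gave 13 rises among 241 measured, against 1.30% of all genes, and 8 of them were cytokines and chemokines. On all 3 days 66 were higher and 51 lower, against 15.5% and 21.2% of all genes, and the median was 0.13. The lower share was near that of all genes. Il1rn, the interleukin-1 receptor antagonist, read 8.80, 8.87 and 8.73 in E-IAAPs, against 2.61, 2.94 and 3.23 in E-AT2s (at least 3.72-fold higher, limma adjusted p = 0.0175). Osm, the interleukin-6 family cytokine oncostatin M, read 9.87, 10.17 and 9.75 in E-IAAPs, against 3.33, 3.16 and 5.44 in E-AT2s (at least 8.13-fold higher, adjusted p = 0.026). Ccl6, a chemokine of macrophages, was 40.4-fold higher and was above background on all 6 arrays. Il34, a ligand of Csf1r made by epithelium, lay the other way at 9.65, 9.14 and 8.99 in E-IAAPs, against 10.32, 10.28 and 9.96 in E-AT2s (1.90-fold lower, adjusted p = 0.316).

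Each of 5 other pathways had 1 gene that rose. Axl, a receptor tyrosine kinase for Gas6 that is listed as a Yap target and is also a receptor of alveolar macrophages, read 11.71, 11.29 and 11.82 in E-IAAPs, against 5.81, 6.17 and 6.003 in E-AT2s (at least 26.0-fold higher, limma adjusted p = 0.0175). Its ligand Gas6 read 12.55 to 13.02 in E-IAAPs and 12.80 to 13.002 in E-AT2s. Egr2, an immediate early transcription factor that alveolar macrophages express, read 13.44, 13.24 and 13.14 in E-IAAPs, against 6.82, 7.21 and 7.56 in E-AT2s (67.4-fold higher with 2 E-AT2 arrays above background, adjusted p = 0.0175). Lfng, a glycosyltransferase that tunes Notch, was at least 9.84-fold higher (adjusted p = 0.0464). Nrg4, an Erbb4 ligand, read 8.70, 7.57 and 7.99 in E-IAAPs, against 4.26, 3.89 and 5.31 in E-AT2s (at least 2.26-fold higher, adjusted p = 0.0382, but 0.0723 with all spots averaged). Pdgfc, a platelet-derived growth factor, read 7.22 to 7.60 in E-IAAPs and 2.95 to 3.61 in E-AT2s, with 2 E-IAAP arrays above background, 1 of 2 spots the other way and an adjusted p of 0.428 with both averaged. The other immediate early genes lay closer together. Of the 22 in the list 14 were higher and 0 lower on all 3 days, against 17.0% and 26.9% of the brighter genes, with a median of 0.41.

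WNT genes had the lowest median of the signaling lists. Of 29 measured, 0 passed, and 12 were lower and 2 higher on all 3 days, against 26.9% and 17.0% of the brighter genes. The arrays of 9 lower ones did not overlap, against 14.7% of the brighter genes. The median was -0.54, or -0.48 with dim genes at background. Axin2, a target and brake of the pathway, read 6.20, 6.61 and 4.78 in E-IAAPs, against 7.08, 7.11 and 6.84 in E-AT2s (at least 1.09-fold lower, limma adjusted p = 0.389). Nkd1, another feedback inhibitor, read 8.98, 9.40 and 8.11 in E-IAAPs, against 9.80, 9.96 and 9.88 in E-AT2s (2.07-fold lower). Tcf7l2, a transcription factor of the pathway, was an exception at 12.34, 12.02 and 12.24 in E-IAAPs, against 10.60, 9.89 and 10.50 in E-AT2s (3.66-fold higher with all 4 spots, adjusted p = 0.0677). The receptor Fzd4, chosen after its values were seen, read 6.08 to 7.32 in E-IAAPs and 4.12 to 5.62 in E-AT2s. Wnt5a, a ligand, and Ctnnb1, beta-catenin, differed by 0.50 and -0.23.

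The FGF list had a median of -0.10, or 0.01 without day 7, and 0 genes past the test. Of its 21 genes 5 were higher and 7 lower on all 3 days, against 17.0% and 26.9% of the brighter genes. Spry2, a feedback inhibitor, read 11.61, 11.53 and 10.90 in E-IAAPs, against 12.51, 12.22 and 11.46 in E-AT2s (1.64-fold lower, limma adjusted p = 0.403), and Etv5, a target of the pathway, read 11.85 to 12.39 in E-IAAPs and 12.37 to 12.75 in E-AT2s with overlapping ranges. In the BMP, Hippo and ephrin lists, Bmp2, a ligand, read 7.67, 8.49 and 6.23 in E-IAAPs, against 9.02, 9.21 and 8.04 in E-AT2s (2.45-fold lower with 2 E-IAAP arrays above background, adjusted p = 0.263). Ccn2, a Yap target, read 4.49, 7.63 and 5.83 in E-IAAPs, against 8.21, 7.99 and 6.77 in E-AT2s (difference -1.68). Efnb1, an ephrin ligand, read 8.64, 8.22 and 7.55 in E-IAAPs, against 9.41, 9.41 and 9.14 in E-AT2s (2.27-fold lower, adjusted p = 0.263). None of these lower ones passed. Vegfa and Nrp1, a vessel growth factor and its coreceptor, differed by -0.55 and -0.57. Of 19 interferon-stimulated genes 0 passed and 9 were higher on all 3 days, against 15.5% of all genes.

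Growth and death genes gave 2 rises among 65 measured, against 1.30% of all genes, with a median of 0.16. Casp1, the inflammasome caspase, read 7.33, 7.32 and 7.48 in E-IAAPs, against 3.46, 3.50 and 3.53 in E-AT2s (at least 1.38-fold higher, limma adjusted p = 0.0175). Pmaip1, the proapoptotic Noxa, read 8.50, 7.47 and 7.76 in E-IAAPs, against 5.75, 3.56 and 4.92 in E-AT2s (at least 2.00-fold higher, adjusted p = 0.0332, and 0.0505 without the day in the fit). Cdk6, a G1 kinase, read 8.07, 7.65 and 7.60 in E-IAAPs, against 6.06, 5.62 and 4.57 in E-AT2s (at least 1.82-fold higher, adjusted p = 0.0677). Its populations did not overlap. Ccnd2, a D-type cyclin, read 10.10 to 10.75 in E-IAAPs and 9.05 to 9.66 in E-AT2s (1.93-fold higher, adjusted p = 0.355), and Ccnd1, its relative, read 11.11 to 11.41 in E-IAAPs and 11.29 to 11.50 in E-AT2s. Cdkn1a, a cell cycle inhibitor, read 7.17, 9.40 and 7.74 in E-IAAPs, against 6.14, 7.19 and 6.93 in E-AT2s (2.55-fold higher with 2 E-AT2 arrays above background, adjusted p = 0.308).

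**Figure D4:**
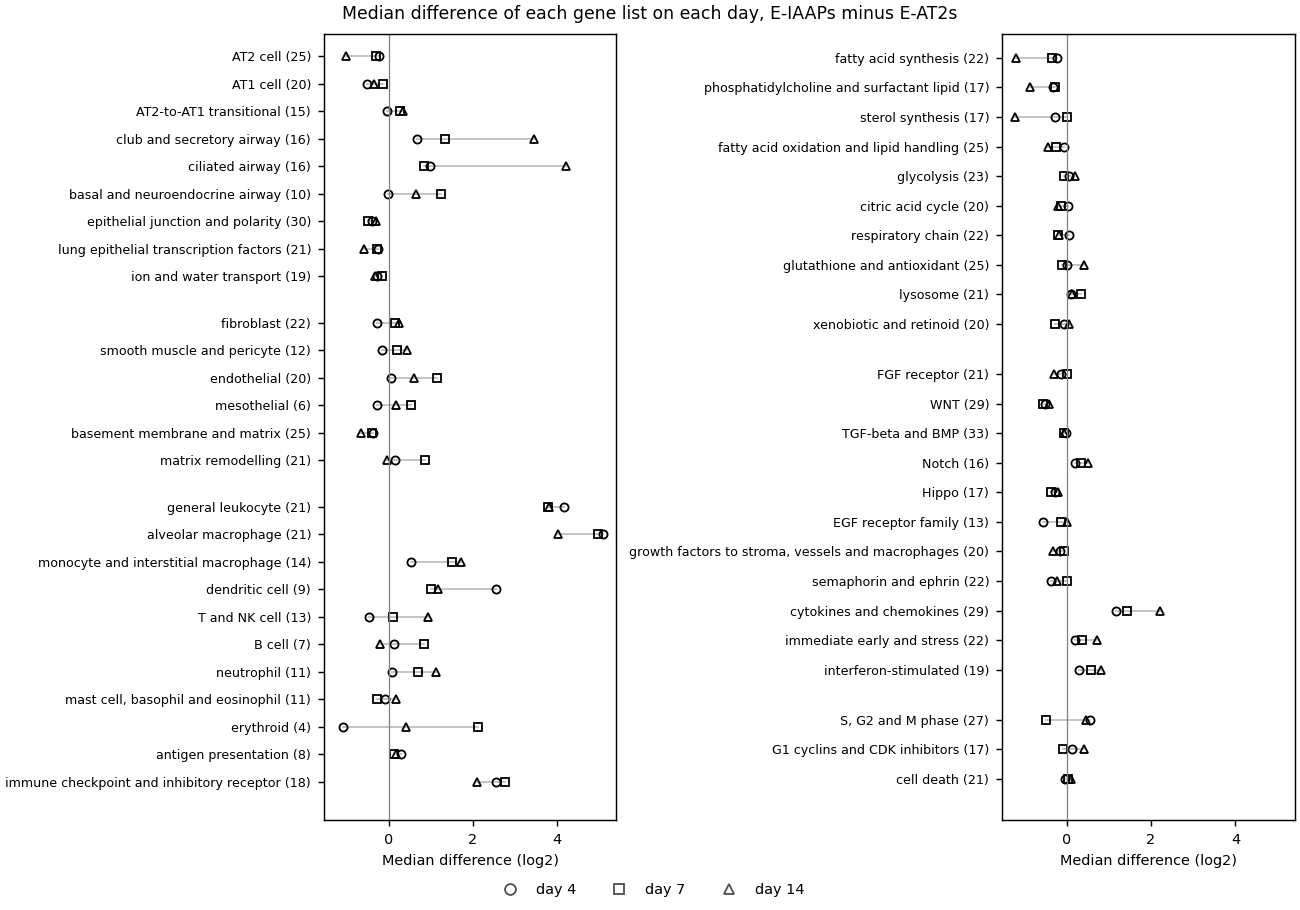
Median log2 difference of each gene list, E-IAAPs minus E-AT2s (x axis), on days 4, 7 and 14, with the number of genes measured in parentheses and a gray line over the 3 days. The alveolar macrophage and general leukocyte lists lie between 3.79 and 5.09, airway lists reach 3.45 and 4.21 on day 14, and the AT2, fatty acid synthesis, junction and WNT lists lie below 0 on each day.

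In the control pair of day 7, C-IAAPs lay above C-AT2s for 289 of the 317 genes (median difference over the 317 of 3.06), and 189 of the 231 lower genes were also lower there, as 47.3% of all genes were. No replicate stood behind the control pair. The AT2 list differed by -0.62 and fatty acid synthesis by -1.08 in the control pair, and junction genes by -0.72. Other lists had the opposite sign in the control pair, such as the AT1 list with a control median of 0.82 (12 genes higher and 8 lower). The FGF list had a control median of 0.45, but its mutant median of -0.10 changed sign without day 7. The background level was 8.67 in C-IAAPs and 6.94 in C-AT2s, so control differences of dim genes are uncertain. Siglecf was 8.92 in C-IAAPs and 4.49 in C-AT2s, and Egr2 was 12.30 in C-IAAPs and 7.22 in C-AT2s. A test of the difference between the genotypes found 687 genes (2.83%) whose difference was shifted upward in the mutant pair and 375 (1.54%) shifted downward, of which 26 and 0 were among the 317. It rests on a single C-IAAP array that stood apart from the others, and with day as a term 0 genes passed in either direction (limma).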

How the data were processed

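RNA of FACS-sorted cells was measured on Agilent mouse arrays. The authors read mean spot signals with Mapix, corrected the background by NormExp on the negative control spots, quantile-normalized the arrays in limma and deposited log2 signals for 62976 spots on 8 arrays. Because quantile normalization gives every array the same distribution, a shift of most genes in 1 direction cannot be seen, and bright genes are compressed toward the ceiling. The age and the tamoxifen dose are those of the labels.

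Of the spots, 43941 were named through the platform annotation, updated to current RefSeq symbols by accession, symbol or synonym. A gene was represented by its brightest spot by mean signal on 8 arrays (24306 genes, 11040 with more than 1 spot). Of 943 listed genes 911 were measured. Background was the 95th percentile of 1395 sensory receptor genes on each array. Daily differences, E-IAAPs minus E-AT2s, were tested with limma 3.58.1 in R 4.3.3 (lmFit with population and day, then eBayes, 2 residual and 2.77 prior degrees of freedom) and adjusted by Benjamini-Hochberg over 24306 genes at 0.05. Since the days pair the arrays by design, day was a term of the model. The genotype test was the interaction over the 8 arrays in 4 groups. The fitting steps were tested on simulated data. A fold of at least N was computed on normalized log2 values, with each dim array held at the higher of its background level and its own value, and no fold is given where both populations were below background. Sequences and motifs came from RefSeq promoters. The number of arrays limits the precision.

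Genes were named by rule: 11 genes of the study (Fgfr2, Cd274, Cd33, Cd300lf, Etv5, Sftpc, Sftpb, Sftpa1, Ccnd1, Ccnd2 and Epcam), the 15 largest differences each way over all genes and the 6 each way in each domain among genes with 1 sign on 3 days and above background in the higher population, the 3 brightest of each list, and members that passed where 5 or fewer did. Genes of this rule whose values added little are left out, and a bright member of the general leukocyte list is not reported here. Other genes named are said to be chosen after their values were seen. The comparison, the gene lists and the tests were chosen with earlier results of these data known. Alternatives covered the day term, scaling, spot choice, dim genes, the variance trend and each day left out.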

Additional observations from a re-analysis of the deposited data

Results flagged for a closer look

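The population difference of 4 named genes changed with genotype by the interaction test (limma, 8 arrays in 4 groups, mutant minus control difference). Slco2b1, an organic anion transporter, read 10.36 to 10.54 in E-IAAPs and 3.17 to 5.26 in E-AT2s, but 5.20 in C-IAAPs and 5.95 in C-AT2s, an interaction of 6.95 (adjusted p = 0.0231, and 0.0672 with all spots averaged). Nrg4, an Erbb4 ligand, read 7.57 to 8.70 in E-IAAPs and 3.89 to 5.31 in E-AT2s, but 2.66 in C-IAAPs and 5.02 in C-AT2s, an interaction of 5.97 (adjusted p = 0.0263). Sult1a1, a sulfotransferase, was lower in both pairs, at 8.50 to 9.55 in E-IAAPs and 9.82 to 10.24 in E-AT2s and at 6.31 in C-IAAPs and 10.47 in C-AT2s, an interaction of 3.27 (adjusted p = 0.0472, and 0.0695 with each array centred on housekeeping genes). Mmp15, a membrane metalloproteinase, was likewise lower, at 6.44 to 7.02 in E-IAAPs and 7.63 to 8.11 in E-AT2s and at 3.36 in C-IAAPs and 7.47 in C-AT2s, an interaction of 3.03 (adjusted p = 0.0371, and 0.0651 with that centring). None of the 4 passed with day as a term or with any 1 day left out, and all rest on the single C-IAAP array, whose background level was 8.67, above the C-IAAP signals of all 4 genes.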

How the results depend on the processing

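Genes higher in E-IAAPs numbered 317, 326 to 468 under 8 alternatives (468 with no replicate block, that is without the day) and 532 with an intensity trend in eBayes. The 1 lower gene became 15 without the day, 15 with all 8 arrays in 4 groups, 15 with the trend, 3 with median centring, 2 with all spots averaged, 0 with housekeeping genes used for centring, 41 among genes above background on the 3 arrays of a population, which lower genes can pass through E-AT2s alone, and 12 among the brighter genes. With any 1 day left out, 0 passed either way (limma), while 2281 to 2362 genes had an unadjusted p under 0.05. The 2 filters kept 1842 and 2072 genes higher and 2856 and 3270 lower on all 3 days, and 1110 and 1185 higher and 1600 lower (first filter) without overlap, since fewer genes were tested. Interaction genes were 419 higher and 567 lower with housekeeping centring, 328 and 219 with all spots averaged, 1242 and 564 with the trend, 1351 and 1345 higher under the filters, and 0 both ways with day as a term or without any 1 day. Day 7 alone gives that difference with no test and was not run. The causes of these changes were not tested, apart from the filters. The log2 difference of Sftpc, -0.03, was 0.00013 with housekeeping centring and -0.056 to 0.012 with a day left out. Of the named genes' values under other alternatives 1171 kept direction and call, 12 lost and 78 gained the call. Over the days left out 266 kept both, 162 lost the call and 1 changed direction. Since no gene was called with a day left out, the 266 were values without a call from the start. These counts do not take in all genes named here. Some small differences changed sign, such as that of Csf1r, at -0.04, -0.12 and 0.04 without days 4, 7 and 14. The median of the AT2 list was -0.66, -0.71 and -0.29 and that of ciliated genes 2.32, 2.66 and 0.94 without days 4, 7 and 14. Signals near 16 or below background limit what can be measured.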

Other observations

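Hemoglobin signal varied widely between arrays of the same population. Hba-a1, alpha globin, read 12.11, 9.13 and 10.17 in E-IAAPs, against 12.36, 6.15 and 8.94 in E-AT2s, so that E-IAAPs were lower on day 4 and higher on days 7 and 14, with all 20 spots higher in E-IAAPs on average (limma adjusted p = 0.502). S100a9, a neutrophil alarmin, read 6.46, 10.37 and 10.33 in E-IAAPs, against 8.01, 7.33 and 7.92 in E-AT2s, and Gzma, a granzyme of cytotoxic lymphocytes, read 5.69, 10.34 and 8.99 in E-IAAPs, against 6.61, 5.30 and 7.47 in E-AT2s. Both likewise were lower in E-IAAPs on day 4 and higher on days 7 and 14.

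Of 27 genes of the S, G2 and M phases 0 passed and 21 had mixed signs, with a median of 0.20. On all 3 days 5 were higher and 1 lower, against 17.0% and 26.9% of the brighter genes. Uhrf1, a chromatin factor of S phase, read 9.01, 9.80 and 9.86 in E-IAAPs, against 6.73, 9.30 and 8.87 in E-AT2s, and E2f1, a factor that opens S phase, read 7.78, 8.23 and 8.39 in E-IAAPs, against 6.14, 7.60 and 7.24 in E-AT2s (limma adjusted p = 0.385 and 0.303). Mcm2, a helicase subunit, read 7.51, 7.89 and 6.47 in E-IAAPs, against 7.82, 8.35 and 7.03 in E-AT2s. Uhrf1 and E2f1 were higher on each day, and Mcm2 was the 1 gene lower on each day. Pcna, the replication clamp, differed by 0.54, and the helicase subunits Mcm4 and Mcm6 by 0.20 and 0.24.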
